A study of Mus musculus with 4 samples.

Results

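Ribosome biogenesis is the assembly of ribosomes in the nucleolus, and 50 genes for it were followed after Kdm2b knockdown. The genes come from a list of nucleolar and ribosome assembly factors, and each was read from the probe set that the platform annotation gives that symbol alone. Where a gene had several such probe sets, the one with the highest mean over the arrays was kept. In this way 48 of the 50 genes were measured, among 19938 genes in all. Noc2l and Ppan had no probe set of their own and are not analysed here.

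The arrays came from E14 cells, a mouse embryonic stem cell line of an inbred 129 strain, with 2 arrays of Kdm2b knockdown cells and 2 of control cells. All cells received lentiviral vectors at 10 MOI, followed by 2 µg/ml puromycin from 48 h on, and grew without feeders on gelatin with 15% serum and 1000 units/ml leukemia inhibitory factor. Kdm2b demethylates histones, has a zinc finger for unmethylated CpG and belongs to a variant Polycomb repressive complex. The sources used here do not give the vectors' sequences, the number of clones or pools behind each array or the origin of the replicates, so the p-values measure the spread between these arrays, which may be technical.

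RNA polymerase I transcribes the ribosomal RNA precursor in the nucleolus. Small nucleolar ribonucleoproteins (snoRNPs) modify that precursor at sites chosen by their guide RNAs, and assembly factors cut, fold and package it into the small and the large ribosomal subunit. Stem cells divide fast and keep large nucleoli, and the transcription factor Myc is a known activator of this gene programme.

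The targeted gene gives the check of the labels. Kdm2b had log2 values of 9.20 and 9.19 on the knockdown arrays and 10.74 and 10.64 on the control arrays. Its log2 value fell by 1.495, with an SE of 0.066 and an adjusted p of 0.0039 in limma. The stem cell markers Pou5f1, Sox2, Nanog, Zfp42, Utf1, Esrrb, Tdgf1 and Dppa5a averaged 13.40 and 13.42 on the knockdown arrays and 13.39 on both control arrays. None of these 8 passed the threshold in either direction, with 1 at an unadjusted p under 0.05 on each side. Over all genes tested 15.1% were higher and 14.7% lower at that unadjusted p.

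The members moved little. In the limma test across all 19938 genes, with a threshold of 0.05 on the adjusted p, 2 of the 48 members were higher after knockdown, 0 were lower and 46 passed in neither direction. These 2 are 4.17% of the members. Over all genes tested, 5.00% were called higher and 7.19% lower, so the share called higher among the members is near the background. At an unadjusted p under 0.05, 11 members were higher, against a background of 15.1%, and 0 were lower, against 14.7%. The log2 fold changes of the members ran from -0.16 (Nol10) to 0.37 (Ftsj3), with a median of 0.0875, beside a median of 0.03 over all genes tested. All 48 members had a mean above 8.52, the median of all probe set means, and with genes below it left out 3 members were higher (Bysl at an adjusted p of 0.0476 beside Ftsj3 and Ebna1bp2), against a background of 8.78%. Over the genes left by that filter the median log2 fold change was -0.005, beside 0.0875 for the members. At an adjusted p under 0.1 in the test of all genes 8 members were higher, against a background of 9.63%.

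Small upward differences were common among them. The log2 fold change was above 0 in 37 members (77.1%), below 0 in 9 and exactly 0 in 2, whereas it was above 0 in 56.9% of all genes. With each array centred on its median, 31 of the 48 members were above 0. Without control replicate 1 there were 34, and without control replicate 2 there were 41. The share of all genes above 0 was not counted in these settings. Both knockdown arrays lay above both control arrays in 26 members, against a background of 33.8%, and below both in 3 members, against 25.0%. In 13 of the 26 the log2 fold change was 0.15 or less. The arrays measure RNA from whole cultures, in which a change in the share of some cells cannot be told apart from a change in RNA per cell.

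**Figure D1:**
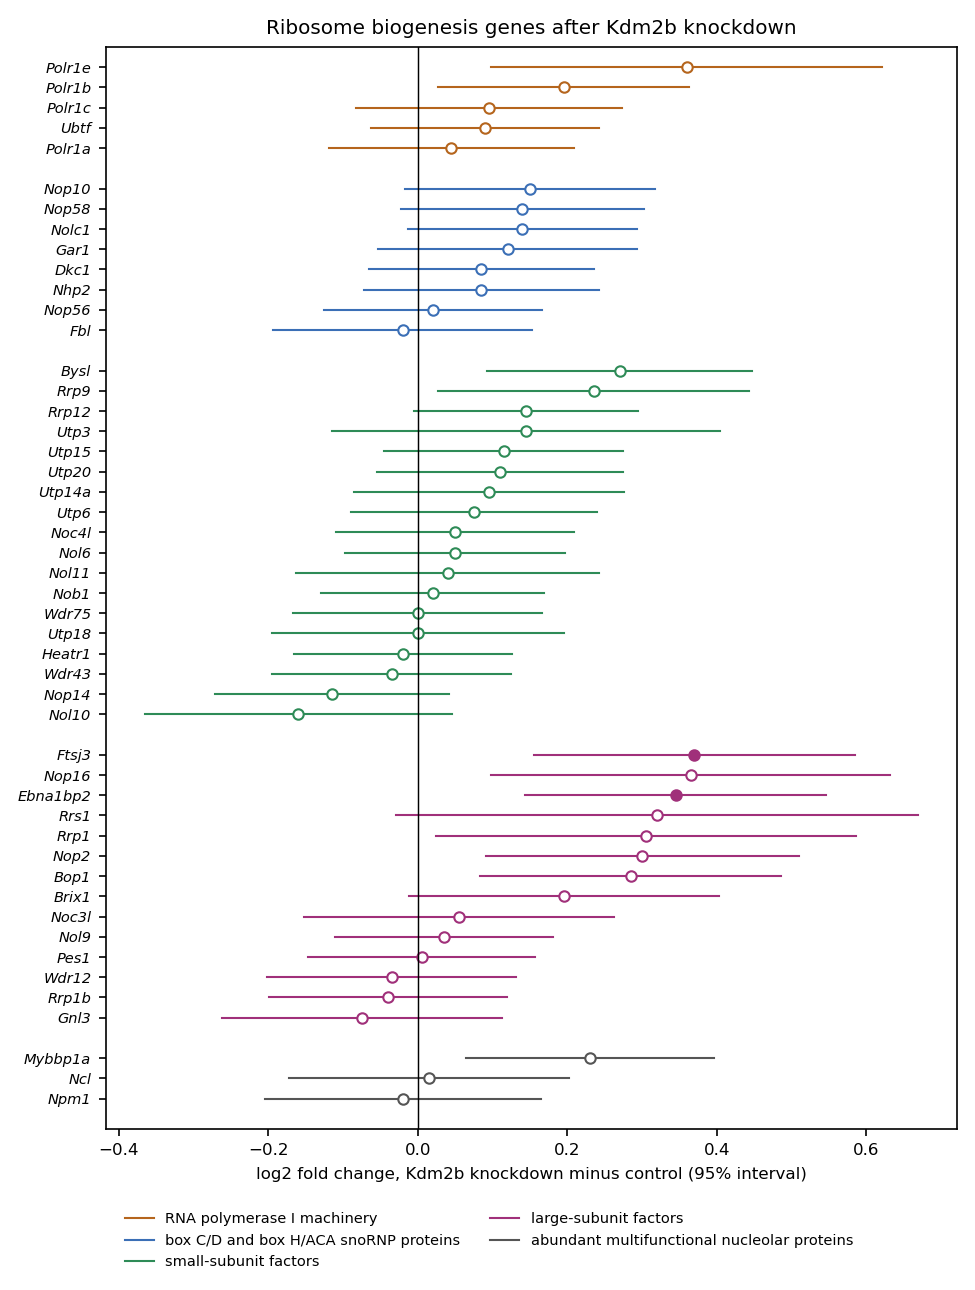
Log2 fold change (knockdown minus control) of each of the 48 measured members, with limma's 95% interval as a line, grouped by role. Filled points are the 2 members past the threshold, Ftsj3 and Ebna1bp2, and open points are the other 46.

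Promoter stretches of 3 members are printed here because Kdm2b's zinc finger reads CpG dinucleotides. The sequences are from RefSeq on GRCm38.p6 and cover the 250 bases before the annotated start, 5′ to 3′ on the gene's strand, with each CpG in capitals. Ftsj3 (chr11:106256085-106256334, minus strand) and Ebna1bp2 (chr4:118620549-118620798, plus strand) are the 2 members called higher, and Nop10 (chr2:112261676-112261925, plus strand) has the fewest CpG of the members that could be read.
Ftsj3: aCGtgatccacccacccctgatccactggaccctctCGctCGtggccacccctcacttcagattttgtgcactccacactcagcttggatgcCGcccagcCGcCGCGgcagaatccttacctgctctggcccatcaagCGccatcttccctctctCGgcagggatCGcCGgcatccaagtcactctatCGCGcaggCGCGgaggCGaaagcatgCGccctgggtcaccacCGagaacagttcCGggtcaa
Ebna1bp2: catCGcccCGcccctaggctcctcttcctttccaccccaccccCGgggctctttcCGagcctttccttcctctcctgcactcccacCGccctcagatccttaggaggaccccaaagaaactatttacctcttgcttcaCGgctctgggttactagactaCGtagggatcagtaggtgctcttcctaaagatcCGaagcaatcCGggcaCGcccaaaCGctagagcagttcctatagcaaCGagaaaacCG
Nop10: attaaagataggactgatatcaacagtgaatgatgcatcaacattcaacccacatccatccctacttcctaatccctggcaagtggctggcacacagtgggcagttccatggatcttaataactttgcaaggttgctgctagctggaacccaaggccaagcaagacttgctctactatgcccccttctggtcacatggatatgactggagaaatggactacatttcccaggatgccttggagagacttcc

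These stretches hold 19 CpG at Ftsj3, 13 at Ebna1bp2 and 0 at Nop10. The 7 CpG counted for Nop10 in the longer window below lie outside its printed stretch. RefSeq windows of 300 bases (250 before to 50 after the start) were found for 41 of the 48 measured members. Counted in each gene's richest window, the members had a median of 21 CpG, with a range from 7 (Nop10) to 44 (Gnl3), beside a median of 8 over the 27025 genes of the table, which include genes that code for no protein. Gnl3, with the most CpG, and Nop10, with the fewest, had log2 fold changes of -0.075 and 0.15, and neither passed the threshold.

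Myc binds the E-box CACGTG, which reads the same on both strands and was searched in the same windows. It was present in 7 of the 41 members (17.1%) and in 8.09% of all genes with a window. Those genes include some that code for no protein. The motif also holds a CpG, and the median CpG count was 21 in the members and 8 over all genes. The shares were not adjusted for this, and the difference between them was not tested. The capitals below mark it in the 3 members that carry it before the start, namely Nop2 (chr6:125131808-125131843, plus strand), Nol11 (chr11:107189404-107189439, minus strand) and Utp18 (chr11:93885767-93885801, minus strand).
Nop2: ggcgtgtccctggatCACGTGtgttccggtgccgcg
Nol11: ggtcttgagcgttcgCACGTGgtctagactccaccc
Utp18: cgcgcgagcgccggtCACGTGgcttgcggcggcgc

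In the other 4 the E-box lay after the start, in Mybbp1a, Pes1, Utp20 and Wdr43. The log2 fold changes of the 7 genes ran from -0.035 (Wdr43) to 0.30 (Nop2), with a median of 0.04. The 34 members with a window but no such E-box had a median of 0.0925. Neither of the 2 members called higher had this motif in its window.

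Myc itself is no member of the list. It had log2 values of 12.67 and 12.90 on the knockdown arrays and 11.57 and 11.95 on the control arrays. It rose by 1.025 (SE 0.14, adjusted p = 0.0136, limma). Its part in the members' values was not tested.

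Large-subunit factors held both calls. Of 14 measured, 2 were higher, 0 lower and 12 neither, beside 5.00% higher and 7.19% lower over all genes, and the median log2 fold change was 0.24. Both knockdown arrays lay above both control arrays in 9 of them, against 33.8% of all genes, and the groups overlapped in 5. Control replicate 1 was the lowest array in 10 of the 14, against 26.9% of all genes.

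Ftsj3, a nucleolar protein whose yeast counterpart methylates the large-subunit RNA, had log2 values of 11.98 and 11.91 on the knockdown arrays and 11.47 and 11.68 on the control arrays. The groups did not overlap, and the control arrays lay further from each other than the knockdown arrays. It rose by 0.37 (SE 0.088, adjusted p = 0.0484, limma), a level 1.29-fold that of control. Ebna1bp2, a nucleolar scaffold protein of large-subunit assembly, had 11.30 and 11.26 on the knockdown arrays and 10.84 and 11.03 on the control arrays. It rose by 0.345 (SE 0.082, adjusted p = 0.0489, limma), or 1.27-fold, and again the groups did not overlap. Both stand just inside the threshold, and with each array centred on its own median the adjusted p was 0.0472 for Ftsj3 and 0.0512 for Ebna1bp2.

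Several further large-subunit factors had differences of like size with adjusted p-values above 0.05. Nop16, an assembly factor, had log2 values of 12.92 and 12.88 on the knockdown arrays and 12.38 and 12.69 on the control arrays, a difference of 0.365 (SE 0.11), for which limma gave an adjusted p of 0.0845. Nop2, which methylates a cytosine of the large-subunit RNA, had 12.86 and 12.77 on the knockdown arrays and 12.42 and 12.61 on the control arrays (0.30, adjusted p = 0.0761, limma). The groups did not overlap in either gene.

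Rrs1, known in yeast for bringing in the smallest ribosomal RNA, had 10.15 and 10.41 on the knockdown arrays and 9.78 and 10.14 on the control arrays (log2 fold change 0.32, adjusted p = 0.198, limma). Its upper control array and its lower knockdown array were 0.01 apart by these values. Rrp1, a processing factor, had 12.41 and 12.47 on the knockdown arrays and 11.97 and 12.30 on the control arrays (0.305, adjusted p = 0.142, limma). Brix1 had a log2 fold change of 0.195 (adjusted p = 0.188, limma), with no overlap between the groups.

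The PeBoW complex, which matures the large-subunit RNA, is made of Bop1, Pes1 and Wdr12, and its subunits had unlike values. Bop1 had 12.59 and 12.55 on the knockdown arrays and 12.19 and 12.38 on the control arrays, a log2 fold change of 0.285 (95% interval 0.084 to 0.486, adjusted p = 0.0779, limma). Pes1 had 12.28 and 12.22 on the knockdown arrays and 12.24 and 12.25 on the control arrays, a difference of 0.005 (interval -0.147 to 0.157). Wdr12 had 11.98 and 12.08 on the knockdown arrays and 12.09 and 12.04 on the control arrays, a difference of -0.035 (interval -0.201 to 0.131). A further probe set for Wdr12 read 10.64 and 10.77 on the knockdown arrays and 10.59 and 10.57 on the control arrays, a difference of 0.125, so its probe sets disagree in direction. The differences between these genes were not tested.

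The paralogs Rrp1 and Rrp1b also differed in their values, with log2 fold changes of 0.305 and -0.04, and the difference between them was not tested. Rrp1b had 12.27 and 12.36 on the knockdown arrays and 12.36 and 12.35 on the control arrays. Gnl3, the GTPase nucleostemin, had a log2 fold change of -0.075 (interval -0.262 to 0.112), with overlapping groups. Nol9, a polynucleotide kinase of precursor processing, stood at 0.035 and Noc3l at 0.055.

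**Figure D2:**
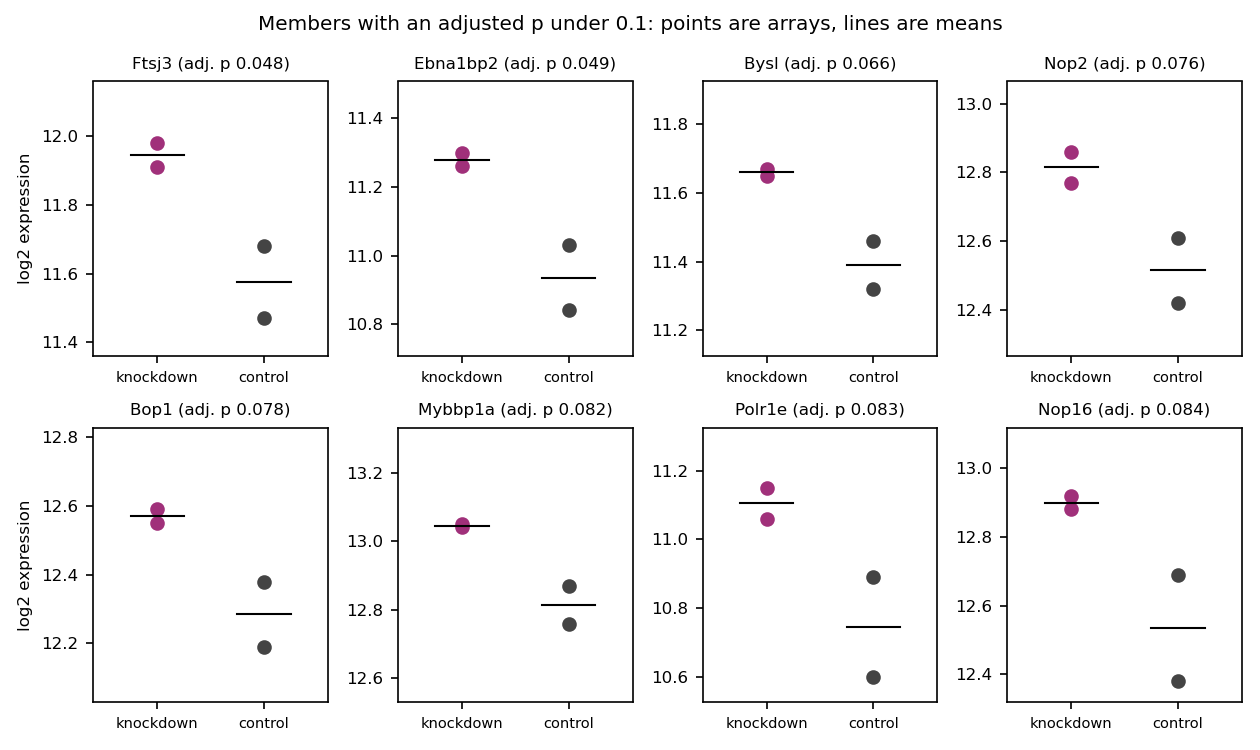
Log2 expression on each array (points) and group means (lines) for the 8 members with an adjusted p under 0.1, knockdown left and control right. Each panel spans the same range of log2 values, and in all 8 the knockdown arrays lie above the control arrays and control replicate 1 is the lowest of the 4.

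Of 5 members of the RNA polymerase I machinery, 0 passed the threshold, beside 5.00% higher and 7.19% lower over all genes. At an unadjusted p under 0.05, 2 were higher, against 15.1% of all genes. All 5 had log2 fold changes above 0, against 56.9% of all genes, with a median of 0.095. Polr1e, a subunit specific to polymerase I, had log2 values of 11.06 and 11.15 on the knockdown arrays and 10.60 and 10.89 on the control arrays (log2 fold change 0.36, SE 0.11, adjusted p = 0.0833, limma). Polr1b, the subunit next in size to the largest, had 13.24 and 13.28 on the knockdown arrays and 13.01 and 13.12 on the control arrays (0.195, adjusted p = 0.123, limma). In both genes the groups were separate.

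The largest subunit Polr1a had a log2 fold change of 0.045 (interval -0.119 to 0.209). Polr1c, which polymerase III shares, stood at 0.095, and its groups met at 12.25. Ubtf, the factor that shapes the promoter of the ribosomal RNA genes, had 12.56 and 12.62 on the knockdown arrays and 12.49 and 12.51 on the control arrays, a difference of 0.09 (adjusted p = 0.382, limma).

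Of the 8 snoRNP proteins 0 passed the threshold, beside 5.00% higher and 7.19% lower over all genes. At an unadjusted p under 0.05 there were also 0, beside 15.1% higher and 14.7% lower over all genes. Their median log2 fold change was 0.1025, and both knockdown arrays lay above both control arrays in 7 of them, against 33.8% of all genes. Control replicate 1 was the lowest array in 6 of the 8, against 26.9% of all genes. The box H/ACA proteins, which belong to the snoRNPs of pseudouridylation, were Nop10 (0.15), Gar1 (0.12), the pseudouridine synthase Dkc1 (0.085) and Nhp2 (0.085). Nop10 had log2 values of 12.98 and 13.01 on the knockdown arrays and 12.79 and 12.90 on the control arrays (adjusted p = 0.205, limma).

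The box C/D proteins, which belong to the snoRNPs of ribose methylation, were Nop58 (0.14), Nop56 (0.02) and the methyltransferase Fbl (-0.02). Nop56 had 13.73 and 13.74 on the knockdown arrays and 13.72 and 13.71 on the control arrays, so its groups were separate by 0.01 with a 95% interval of the difference from -0.126 to 0.166. Fbl had 12.59 and 12.52 on the knockdown arrays and 12.63 and 12.52 on the control arrays, and a further probe set for it gave a difference of -0.01. Nolc1, a chaperone of both classes, had 13.03 and 13.05 on the knockdown arrays and 12.87 and 12.93 on the control arrays (0.14, adjusted p = 0.198, limma).

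Small-subunit factors had log2 fold changes from -0.16 to 0.27. Of 18 measured, 0 passed the threshold, beside 5.00% higher and 7.19% lower over all genes. At an unadjusted p under 0.05, 2 were higher, against 15.1% of all genes. The log2 fold change was above 0 in 12 (66.7%), near the 56.9% of all genes, below 0 in 4 and at 0 in 2, with a median of 0.05. Bysl, the pre-ribosome protein bystin, had 11.65 and 11.67 on the knockdown arrays and 11.32 and 11.46 on the control arrays (0.27, SE 0.072, adjusted p = 0.0661, limma). Rrp9, a protein specific to the U3 snoRNP, had 12.13 and 12.25 on the knockdown arrays and 11.87 and 12.04 on the control arrays (0.235, adjusted p = 0.131, limma). Both genes had separate groups.

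Both knockdown arrays lay above both control arrays in 6 of the 18 small-subunit factors, against 33.8% of all genes. They lay below both control arrays in 3 of the 18, against 25.0% of all genes. These 3 were the only such members, and none of them passed the threshold. Nol10 had 10.91 and 11.02 on the knockdown arrays and 11.04 and 11.21 on the control arrays (-0.16, interval -0.365 to 0.045, adjusted p = 0.261, limma). Nop14 had 11.78 and 11.82 on the knockdown arrays and 11.88 and 11.95 on the control arrays (-0.115, adjusted p = 0.285, limma). Heatr1, a large scaffold protein of the early precursor, had 12.47 and 12.46 on the knockdown arrays and 12.48 and 12.49 on the control arrays, a difference of -0.02 (interval -0.166 to 0.126).

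The remaining 13 small-subunit factors lay between -0.035 (Wdr43) and 0.145 (Rrp12 and Utp3). Rrp12, which helps export both subunits in yeast, had 10.91 and 10.95 on the knockdown arrays and 10.80 and 10.77 on the control arrays (0.145, adjusted p = 0.179, limma). Utp3 (adjusted p = 0.407, limma) had overlapping groups. Wdr75 had the same pair of values, 12.59 and 12.67, in knockdown and in control, and Utp18 also had a difference of 0.

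The others of this set were Utp15 (0.115), Utp20 (0.11), Utp14a (0.095), Utp6 (0.075), Noc4l (0.05), Nol6 (0.05), Nol11 (0.04) and the endonuclease Nob1 (0.02), which makes the final cut of the small-subunit RNA. Utp15, Nol11, Wdr43, Wdr75 and Heatr1 belong to the subcomplex that binds the precursor first. Their differences ran from -0.035 to 0.115 and none of them passed.

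Of the 3 abundant nucleolar proteins with several functions, 0 passed, beside 5.00% higher and 7.19% lower over all genes. At an unadjusted p under 0.05, 1 was higher, against 15.1% of all genes. Ncl (nucleolin) had 13.47 and 13.57 on the knockdown arrays and 13.44 and 13.57 on the control arrays, a difference of 0.015 (interval -0.172 to 0.202). Npm1 (nucleophosmin) had 13.06 and 13.19 on the knockdown arrays and 13.10 and 13.19 on the control arrays, a difference of -0.02 (interval -0.205 to 0.165). Mybbp1a, a nucleolar protein that also binds transcription factors, had 13.04 and 13.05 on the knockdown arrays and 12.76 and 12.87 on the control arrays (0.23, SE 0.067, adjusted p = 0.0818, limma).

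The control arrays differed from each other in these genes. Control replicate 1 read below control replicate 2 in 39 of the 48 members (81.2%), against 44.3% of all genes, and it was alone the lowest of the 4 arrays in 30 members (62.5%), against 26.9% of all genes. Knockdown replicate 1 also read below knockdown replicate 2 in 35 of the 48 members, against 9293 of the 19938 genes tested. Replicate 1 was thus the lower array in most members in both groups. This did not hold in each role. In the 14 large-subunit factors control replicate 1 was the lower control array in 12, and knockdown replicate 1 the lower knockdown array in 7. In Ftsj3 and Ebna1bp2 knockdown replicate 1 read above knockdown replicate 2. Among large-subunit factors the median gap was 0.065 between the knockdown arrays and 0.19 between the control arrays, beside 0.08 for all genes in each group. The array plot by role shows the low values on control replicate 1.

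Values without control replicate 1 were smaller for the genes given next. The members' median log2 fold change was then 0.0625, Ftsj3 stood at 0.265, Ebna1bp2 at 0.25, Polr1e at 0.215, Nop16 at 0.21, Rrs1 and Rrp1 at 0.14 each, Rrp9 at 0.15, Brix1 at 0.095 and Utp3 at 0.015. Other members had larger values than with all arrays, among them Rrp12 (0.16), Utp15 (0.15), Utp20 (0.13) and Polr1a (0.085). Without control replicate 2 the members' median was 0.1225. Ftsj3 then stood at 0.475, Ebna1bp2 at 0.44, Polr1e at 0.505, Nop16 at 0.52 and Rrs1 at 0.5. Rrp1 stood at 0.47, Rrp9 at 0.32, Brix1 at 0.295 and Utp3 at 0.275. With any array left out limma called 0 members and 0 of all genes, with 1 to 13 members and 3495 to 4215 genes at an unadjusted p under 0.05.

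**Figure D3:**
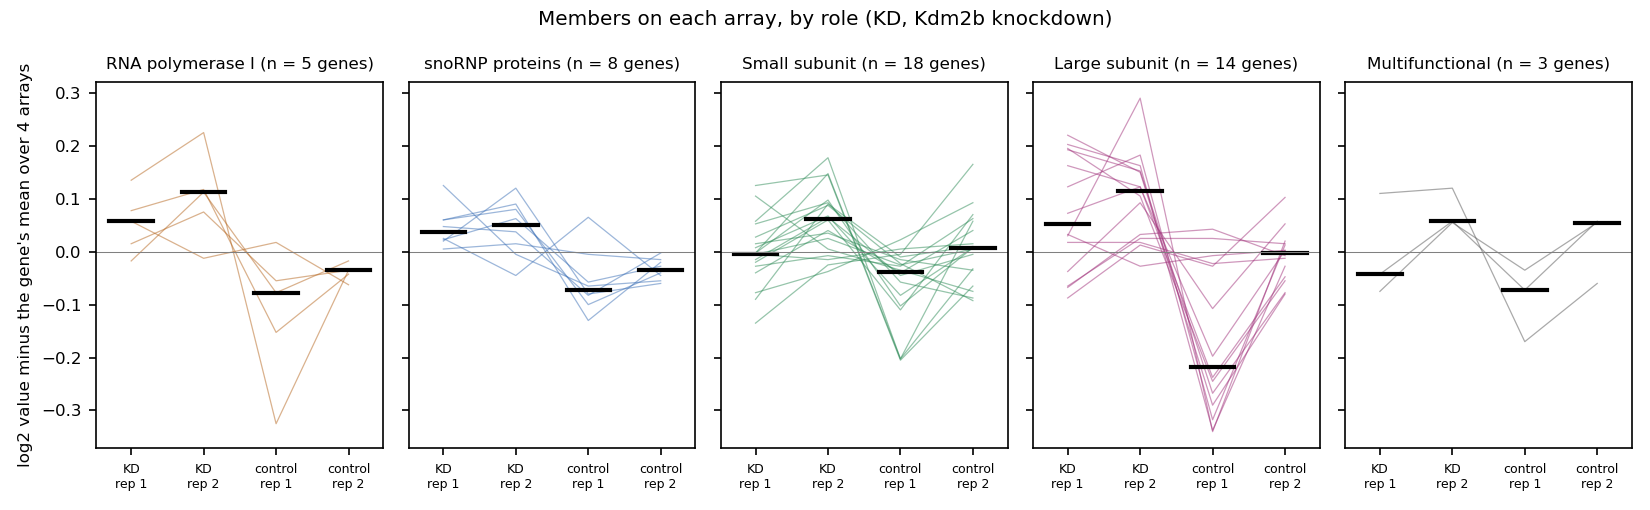
Log2 value of each measured member minus its mean over the 4 arrays (thin lines, 1 per gene) and the median per array (bars), by role. Control replicate 1 has the lowest bar in every panel, and the lowest of these bars is among the large-subunit factors.

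A wider list of 108 other ribosome biogenesis genes was read in the same way, of which 105 had a probe set of their own. The test called 12 of them higher (11.4%), 2 lower and 91 in neither direction, beside the background of 5.00% higher and 7.19% lower, and the median log2 fold change was 0.105. Of 47 large-subunit factors on this list, 5 were higher and 0 lower, and of 39 small-subunit factors 5 were higher and 1 lower. Of 11 polymerase I factors 1 was higher and 1 lower, and of 8 snoRNP assembly factors 1 was higher and 0 lower. With dim genes removed 14 of the list were higher, against a background of 8.78%, and with the replicate number as a block limma called 0. Control replicate 1 was the lowest array in 61 of the 105 (58.1%), against 26.9% of all genes, and read below control replicate 2 in 82 (78.1%), against 44.3%. Knockdown replicate 1 likewise read below knockdown replicate 2 in 82 of the 105, against 9293 of the 19938 genes tested.

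Among the higher ones, Ngdn rose by 0.555 (SE 0.13, adjusted p = 0.0438, limma), and had log2 values of 9.63 and 9.68 on the knockdown arrays and 8.91 and 9.29 on the control arrays. Leaving out control replicate 1 gave it 0.365, and leaving out control replicate 2 gave 0.745. Riok2, a kinase of the late small-subunit precursor, rose by 0.54 (SE 0.084), with 12.34 and 12.41 on the knockdown arrays and 11.74 and 11.93 on the control arrays. Pwp2, a scaffold of the early precursor, rose by 0.38 and the helicase Ddx24 by 0.375. Taf1b, a subunit of the factor that brings polymerase I to its promoter, fell by 0.51 (SE 0.085, adjusted p = 0.02, limma), with 9.74 and 9.93 on the knockdown arrays and 10.30 and 10.39 on the control arrays. Tsr2, known in yeast as a ribosomal protein chaperone, fell by 0.405.

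**Figure D4:**
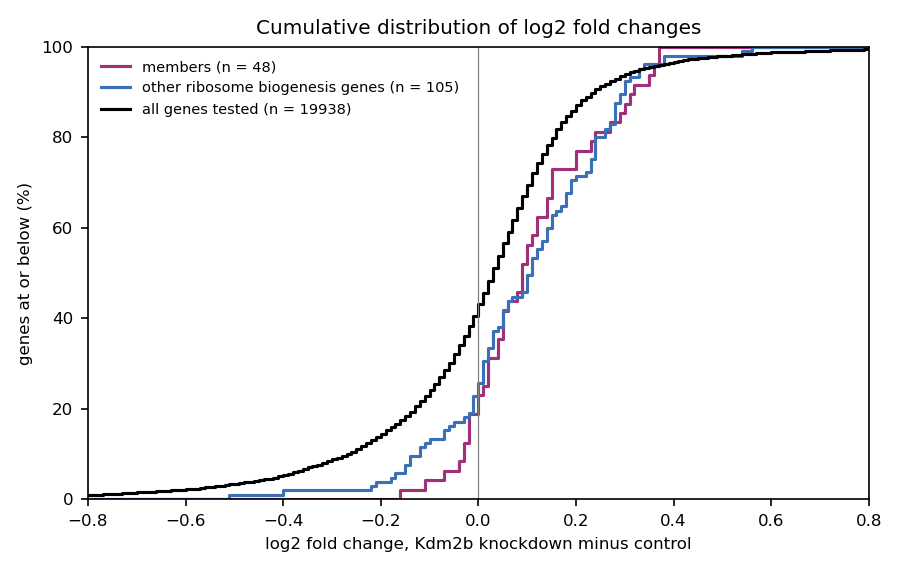
Share of genes (y axis, percent) at or below each log2 fold change (x axis) for the 48 members, the 105 other ribosome biogenesis genes and all 19938 genes tested. The curves of both gene lists lie to the right of that of all genes around 0, with medians of 0.0875, 0.105 and 0.03. With dim genes removed, which is not drawn, the median over all genes was -0.005.

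Markers of other cell types were read on the same arrays. Of 9 primitive endoderm markers 3 were higher (Gata6, Dab2 and Sox17) and 0 lower, against 5.00% higher and 7.19% lower over all genes. The markers that did not pass ran from -0.145 (Hnf4a), 0.005 (Afp) and 0.20 (Foxa2) to 1.525 (Pdgfra). The list averaged 9.43 and 9.84 on the knockdown arrays and 8.99 and 8.81 on the control arrays. Of 10 fibroblast and feeder markers 1 was higher (Twist1) and 1 lower (Acta2), beside the same shares over all genes. Their list averages were 8.67 and 8.61 on the knockdown arrays and 8.62 and 8.63 on the control arrays. The part of primitive endoderm cells in the members' values was not tested.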

How the data were processed

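Per the labels, total RNA was labelled with biotin and read on Affymetrix MoGene-1_0-st-v1 arrays, and per the submitters' processing notes the authors used Affymetrix Expression Console. The deposited values are log2 expression per probe set (35557 on each of 4 arrays), a scale read from their range (3.12 to 14.74). The sources used here do not state the version, the summary method or the scaling between arrays. Array medians were 8.53 to 8.55 in knockdown and 8.49 to 8.51 in control. The number of arrays limits the precision.

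Of the probe sets, 21789 had 1 symbol in the platform annotation, 1621 several and 12147 none. Of the 108 other genes 3 were matched through older symbols. limma 3.58.1 in R 4.3.3 was run on all 19938 genes (lmFit, eBayes, group only, two-sided, Benjamini-Hochberg), and tested on simulated data. Intervals are 95% from the moderated SE. The members and lists were chosen with earlier results of these data known. All members are given by role, with array values for those past the threshold and for the largest differences in each role, and the 4 other genes with the largest called change in each direction. Wdr12 was given because its probe sets disagree, and Rrp1b as the paralog of Rrp1. Nop2 came after the 3 largest uncalled differences of its role. Nop2, Bop1, Pes1, Wdr75 and other members given beyond this rule were picked once their values had been seen.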

Additional observations from a re-analysis of the deposited data

How the results depend on the processing

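The settings tried were the replicate block, each array left out, quantile normalization, centring, a filter on dim genes, the mean over each gene's probe sets, a robust prior, a prior with an intensity trend, and a looser threshold. The sources used here do not say what arrays with the same replicate number share. Over all genes the deviations of replicate 1 correlated at 0.0954 between groups. Among the 48 members, however, replicate 1 read below replicate 2 in 39 in control and in 35 in knockdown. In the 14 large-subunit factors these counts were 12 and 7. With the replicate block limma called 0 genes in either direction, 0 members and 0 other ribosome biogenesis genes, with 5411 genes and 9 members (8 higher, 1 lower) at an unadjusted p under 0.05. Kdm2b then stood at -1.495 (adjusted p = 0.127). Without any 1 array the 0 calls were the same for all lists, and Kdm2b ran from -1.545 to -1.445 (adjusted p 0.196 to 0.258). Those fits have fewer samples. Members called higher were 1 with each array centred on its median (841 of 19938 genes higher and 1866 lower), 3 with dim genes removed (background 8.78%), 4 where the prior followed intensity (Nop2 and Mybbp1a besides Ftsj3 and Ebna1bp2, with 1109 of 19938 genes higher), and 8 at an adjusted p under 0.1 (background 9.63%), where 1920 genes were called higher and 2236 lower, and 20 of the other ribosome biogenesis genes higher. Members called lower by limma were 0 in every setting run, with 0 or 1 at an unadjusted p under 0.05.

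The members' median ran from 0.0475 (arrays centred, all genes at -0.01) to 0.1225 (without control replicate 2), above 0 in every setting run. Signs turned only in members with differences under 0.06, and the cause was not tested. With each array centred these were Nop56 (-0.02), Nob1 (-0.02), Pes1 (-0.035), Nol9 (-0.005) and Ncl (-0.025), and with the mean of its probe sets Wdr12 (0.045). With 1 array left out the values crossed 0 for Fbl (-0.075 to 0.035), Wdr43 (-0.08 to 0.01), Nol11 (-0.05 to 0.13), Pes1 (-0.025 to 0.035), Wdr12 (-0.085 to 0.015), Rrp1b (-0.085 to 0.005), Noc3l (-0.025 to 0.135), Ncl (-0.05 to 0.08) and Npm1 (-0.085 to 0.045). Utp18 (-0.09 to 0.09) and Wdr75 (-0.04 to 0.04), at 0 with all arrays, also took both signs.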
